A study of Homo sapiens with 4 samples.

Results

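The genes described here are 10 genes of acute phase proteins, namely HP, CRP, SAA1, SAA2, SAA4, ORM1, ORM2, LBP, ITIH3 and ITIH4. They were taken by gene symbol from the 58302 genes of the expression files, and all 10 were found. The mRNA-seq libraries came from HepG2, a human hepatocellular carcinoma cell line that the labels give as wild type (WT), grown in medium with fetal bovine serum. Cells received 1 mM melatonin or its solvent DMSO, and RNA was taken after 24 h and after 48 h, which gave 4 conditions (either treatment at either time) with 1 library each. No cytokine is named in the treatment, and a single tumour line stands for the hepatocyte. There were no replicates, so the spread between cultures is unknown for every difference given here.

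Acute phase proteins are plasma proteins that the liver makes in changed amounts during infection or injury. Interleukin-6, acting through its receptor and the transcription factor STAT3, and interleukin-1, acting through NF-kappaB, are the classical signals, and C/EBP factors and glucocorticoids act with them. HepG2 cells have long been used to study this response, usually after cytokines are added. CRP and the serum amyloids SAA1 and SAA2 are the proteins with the widest induction, while haptoglobin, the orosomucoids and the inter-alpha-trypsin inhibitor heavy chains are made by resting hepatocytes as well.

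Expression was given as FPKM, that is fragments per kilobase of gene length, scaled by library size. Read numbers were worked back from the values themselves, and intervals in parentheses are 95% exact intervals of these reads, which cover counting error only. The lowest level read as signal was that of 3 reads. The reads on genes numbered between 21616676 and 23086025 per library, and mitochondrial genes held between 9.77% and 20.0% of them. All 12 hepatocyte markers looked up had an FPKM of at least 1 in every library, and their summed FPKM was 9233 and 8610 at 24 h, and 8963 and 7049 at 48 h, for DMSO and melatonin. Of them, APOH fell with melatonin by 1.05 at 24 h and by 2.00 at 48 h (log2 of the FPKM ratio, 1 added to each FPKM, where the value of 24 h was -0.87 on the TPM scale and -0.98 when scaled to summed reads, short of a call), AFP fell by 1.28 at 48 h and TTR rose by 2.31. Whether these differences have a part in the members' values was not tested. Markers of blood cells (PTPRC, CD163, MARCO, HBB), fibroblasts (COL1A2, COL3A1, DCN, LUM) and bile duct cells (KRT7, CFTR) had at most 3 reads in any library, and none of the 7 endothelial markers reached an FPKM of 1. Other genes of these lists were present, with LYZ between 729 and 1069, SOX9 between 77.1 and 84.1, PDGFRB at most 4.33 and ACTA2 at most 3.81. Among them, the bile duct markers KRT19 and EPCAM were lower with melatonin without being called, with an FPKM of 62.1 and 33.2 at 24 h and 34.5 and 18.8 at 48 h for KRT19, and 51.3 and 38.2, and 63.7 and 36.4, for EPCAM. The median log2 fold change of the 3 bile duct markers tested was -0.41 at 24 h and -0.79 at 48 h. CD74, from the list of macrophage and blood markers, had -0.04 and -0.97. The FPKM of CD74 was 36.3 and 35.3 at 24 h and 43.6 and 21.7 at 48 h for DMSO and melatonin. That of CD14, which is on the same list and also on that of further positive acute phase proteins, was 1.10 and 0.889, and 0.870 and 0.239. Their part in the members' values was not tested either. The libraries came from a single cell line, so a listed gene that is expressed here need not mark a cell of that kind. As in any bulk sample, fewer cells of a kind and less RNA per cell cannot be told apart.

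The members fell into a group with clear expression and a group with next to none. ORM1, ORM2, ITIH3 and HP had an FPKM of at least 1 in every library, SAA4 reached 1 in a single library, and the other 5 members had at most 3 reads in each library. In the DMSO library of 24 h the order of the levels was ORM1 (168), ORM2 (155), ITIH3 (57.2) and HP (34.7), and the intervals of neighbours in this order did not overlap. The order rests in part on the length by which each gene was divided. For HP the files give 5405 bp, which is 3.52 times the 1534 bp of its MANE Select transcript (the reference transcript of the gene) in GENCODE 44, and for ITIH3 5921 bp, which is 2.12 times. Divided by the length of the MANE transcript, the levels in that library would be 198 for ORM1, 155 for ORM2, 122 for HP and 121 for ITIH3. Ratios of FPKM of a gene with itself do not depend on this length, while fold changes with a value added to the FPKM do.

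**Figure D1:**
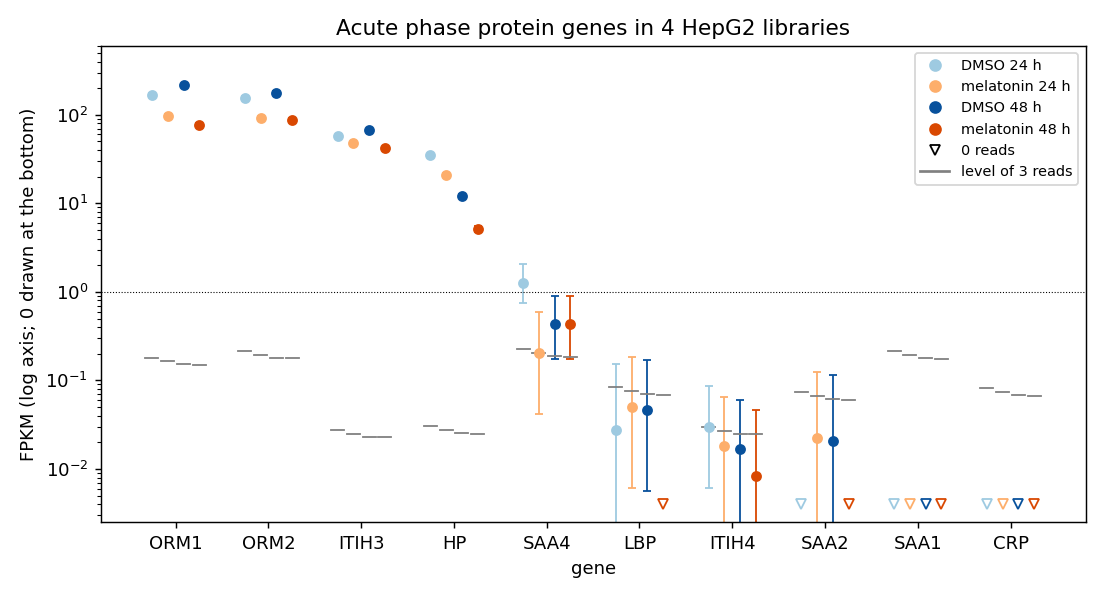
FPKM of each of the 10 genes (log axis) in the 4 libraries, with 95% exact Poisson intervals, grey dashes at the level of 3 reads and open triangles for 0 reads. ORM1, ORM2, ITIH3 and HP lie far above the level of 3 reads in all libraries, SAA4 lies near it, and LBP, ITIH4, SAA2, SAA1 and CRP lie at or below it.

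ORM1 and ORM2 encode the orosomucoids (alpha-1-acid glycoproteins), plasma lipocalins that bind basic drugs and steroids. ORM1 (ENSG00000229314) lies in the files on chromosome 9 from 114323056 to 114326475, and ORM2 (ENSG00000228278) follows it on the same strand from 114329869 to 114333252. In the DMSO libraries ORM1 had an FPKM of 168 (162.0 to 175) at 24 h and of 215 (209 to 222) at 48 h, and in the melatonin libraries it had 96.4 (92.0 to 101) and 77.1 (73.3 to 81.0). Both melatonin libraries thus lay below both DMSO libraries. The ratio of melatonin to DMSO was 0.573 (0.540 to 0.609) at 24 h and 0.358 (0.338 to 0.380) at 48 h. ORM2 showed the same order of libraries, with an FPKM of 155 (149 to 161.7) and 92.3 (87.6 to 97.2) at 24 h and of 178 (172 to 185) and 87.9 (83.5 to 92.5) at 48 h for DMSO and melatonin. Its ratios were 0.595 (0.557 to 0.637) and 0.493 (0.463 to 0.525).

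The genes of the orosomucoids are near-copies, and reads could have been assigned to the wrong one. The MANE transcripts of 764 and 759 bp have 728 identical positions, 31 mismatches and 5 gap positions when aligned, and 49.8% of the windows of 50 bases in ORM1 occur unchanged in ORM2. The stretch of 60 bases of the coding part where they differ most, from base 374 to base 433 of either transcript, is shown because it is where reads can tell them apart. Sequences are those of GENCODE 44 on hg38, and capitals mark the 14 bases at which they differ.
ORM1: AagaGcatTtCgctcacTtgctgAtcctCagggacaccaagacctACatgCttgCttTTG
ORM2: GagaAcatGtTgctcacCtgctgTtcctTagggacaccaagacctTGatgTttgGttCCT
Of the reads assigned to either gene, ORM1 held at 24 h 56.3% (54.9 to 57.6) in the DMSO library against 55.3% (53.6 to 57.1) in the melatonin library, and these intervals overlap. At 48 h the shares were 58.8% (57.69 to 59.97) against 51.0% (49.2 to 52.8), of 7222 reads in the DMSO library and 3025 in the melatonin library, and the intervals are apart. In the reads as assigned, the lower level with melatonin at 48 h was thus more marked for ORM1 than for ORM2, beyond counting error. The intervals cover neither wrong assignment nor the spread between cultures. The reads of both genes together, whose number does not depend on the split between them and is not scaled by library size, came to 4945 and 3185 at 24 h and to 7222 and 3025 at 48 h for DMSO and melatonin. Reads that match both genes may have been lost or counted for each, which these sums cannot show.

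HP encodes haptoglobin, which binds free haemoglobin in plasma. The files place HP (ENSG00000257017) on chromosome 16 from 72054592 to 72061055 on the forward strand. In the DMSO libraries its FPKM was 34.7 (33.6 to 35.9) at 24 h and 12.2 (11.6 to 12.9) at 48 h, from 3446 and 1450 reads. In the melatonin libraries it was 21.2 (20.3 to 22.0) and 5.15 (4.75 to 5.57), from 2319 and 618 reads. The 4 intervals do not overlap, and the gene was lower with melatonin than with DMSO at each time and lower at 48 h than at 24 h in either treatment. The ratio of melatonin to DMSO was 0.609 (0.578 to 0.642) at 24 h and 0.421 (0.382 to 0.463) at 48 h.

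HPR, the haptoglobin-related gene that follows HP from 72063224 to 72077246, shares 30.2% of the 50-base windows of the HP transcript, so the split of reads between them is uncertain. HPR had an FPKM of 17.6 and 9.31 at 24 h and of 5.32 and 4.50 at 48 h for DMSO and melatonin. Its ratio of melatonin to DMSO was 0.528 (0.457 to 0.610) at 24 h and 0.846 (0.681 to 1.05) at 48 h, the latter an interval that holds 1. Of the reads of the pair, HP held at 48 h 88.5% (86.9 to 90.0) in the DMSO library against 79.3% (76.3 to 82.1) in the melatonin library, and at 24 h 86.9% (85.8 to 87.9) against 88.4% (87.1 to 89.6). TXNL4B, on the opposite strand, overlaps the span of HP, with 262 to 523 reads of its own per library. Whether the counting used strand is not given in the sources used here.

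**Figure D2:**
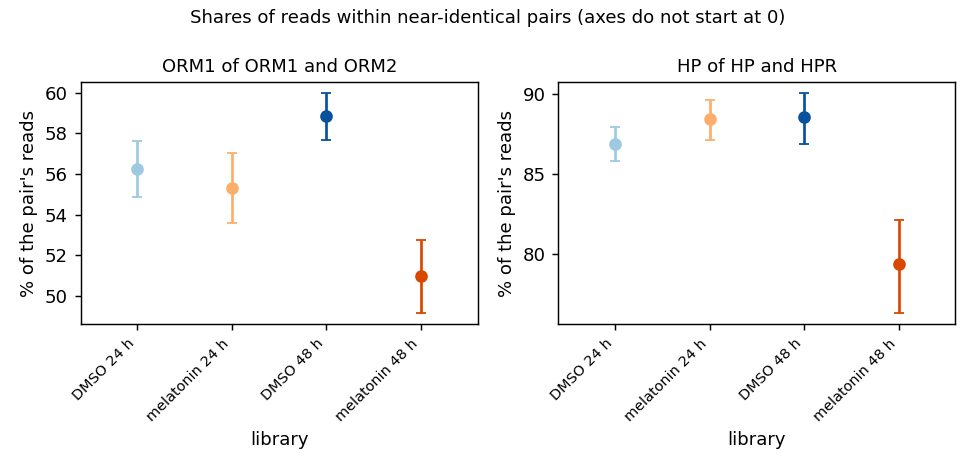
Share of the reads of a pair of related genes that went to ORM1 (left, of ORM1 and ORM2) and to HP (right, of HP and HPR) in each library, in percent with 95% exact binomial intervals and axes that do not start at 0. The aligned MANE transcripts are 95.3% identical for ORM1 and ORM2 and 77.6% for HP and HPR, with gaps counted as unlike. HP and HPR have 1193 identical positions, 46 mismatches and 298 gap positions, so most of the unlike positions are gaps. In both pairs the melatonin library of 48 h lies lowest, at 51.0% and 79.3%.

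The heavy chains of the inter-alpha-trypsin inhibitors are secreted proteins that are transferred onto hyaluronan, and ITIH4 is the member of the family that is best known as an acute phase protein. ITIH3 (ENSG00000162267) lies on chromosome 3 from 52794768 to 52809009, between ITIH1 and ITIH4. The DMSO libraries gave it an FPKM of 57.2 (55.8 to 58.6) at 24 h and of 68.1 (66.6 to 69.5) at 48 h, and the melatonin libraries 47.6 (46.4 to 48.8) and 42.4 (41.3 to 43.5). As for the orosomucoids, both melatonin libraries lay below both DMSO libraries, and the ratios of 0.832 (0.802 to 0.862) and 0.623 (0.603 to 0.644) were closer to 1. ITIH4 (ENSG00000055955), whose span begins at 52812975, had 3 and 2 reads at 24 h and 2 and 1 at 48 h for DMSO and melatonin, at or under the level of 3 reads throughout. MUSTN1, a small neighbour, had 2 reads in the DMSO library of 24 h and 0 elsewhere. ITIH1, on the other side, had an FPKM of 1.97 and 0.759 at 24 h and of 1.06 and 0.396 at 48 h for DMSO and melatonin.

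Elsewhere in the genome, the heavy chain gene ITIH2 and AMBP, which encodes the light chain bikunin, were far higher than ITIH3. The FPKM of ITIH2 was 913 and 850 at 24 h and 1111 and 901 at 48 h for DMSO and melatonin, and that of AMBP was 1058 and 1189, and 1343 and 1269. Their log2 fold changes with melatonin were -0.10 and 0.17 at 24 h and -0.30 and -0.08 at 48 h, and that of ITIH2 at 24 h turned positive (0.07) on the TPM scale, on which the values of every library are made to sum to the same total.

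The serum amyloid A genes form a cluster on chromosome 11, and their proteins travel on high-density lipoprotein. SAA1 (ENSG00000173432) had 0 reads in every library, which allows an FPKM of up to 0.177 to 0.214 by the level of 3 reads. SAA2 (ENSG00000134339) had 1 read in melatonin 24 h and in DMSO 48 h and 0 in the other libraries. The SAA1 and SAA2 transcripts share 40.9% of the 50-base windows of SAA1, so the split of reads between them is uncertain, but both together drew at most 1 read per library.

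SAA4 (ENSG00000148965), whose protein is made constitutively rather than on induction, drew 17 reads in the DMSO library of 24 h, 3 in the melatonin library of that time, and 7 in either library of 48 h. Its FPKM was 1.27 (0.742 to 2.04) and 0.203 (0.0420 to 0.595) at 24 h, and 0.439 (0.177 to 0.905) and 0.434 (0.174 to 0.893) at 48 h. The intervals of 24 h are apart, with a ratio of 0.160 (0.0300 to 0.552), and those of 48 h are nearly the same. The readthrough gene SAA2-SAA4 and the pseudogene SAA3P had 0 reads.

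CRP, the pentraxin used as a blood marker of inflammation, and LBP, which carries bacterial lipopolysaccharide to CD14, gave almost no reads. CRP (ENSG00000132693, chromosome 1) had 0 reads in each library, with a level of 3 reads at 0.0670 to 0.0811 FPKM, and its relative APCS had 0 as well. LBP (ENSG00000129988, chromosome 20) had 1 and 2 reads at 24 h and 2 and 0 at 48 h for DMSO and melatonin. Its relative BPI had 0 reads, whereas PLTP, the phospholipid transfer protein of the same family, had an FPKM of 22.1 and 24.1 at 24 h and of 15.1 and 17.4 at 48 h for DMSO and melatonin. For CRP, SAA1, SAA2, LBP and ITIH4, an effect of melatonin was not detectable at this depth.

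To ask which members changed with melatonin, log2((melatonin FPKM + 1)/(DMSO FPKM + 1)) was taken for genes that reached an FPKM of 1 in at least 1 of the 2 libraries, and a gene was called at 1 or above or at -1 or below, which is 2-fold. This scale understates the change of low genes. At 24 h, 5 of the 10 members passed the minimum and 0 were called, where 4.35% of 13582 genes were called in either direction and 2.93% as lower. The values were -0.80 for ORM1, -0.74 for ORM2, -0.69 for HP and -0.26 for ITIH3. SAA4 had -0.92, but it passed the minimum through the DMSO library alone, so its direction was fixed by the minimum. The median was -0.74 with SAA4 and -0.72 without it, against 0.02 for all genes tested. At 48 h, 4 members passed and 3 of them fell, where 5.72% of 13805 genes were called in either direction and 3.32% as lower. Of these 3, ORM1 and ORM2 are near-copies, and with near-copies summed 3 entries passed and 2 fell. ORM1 fell by 1.47, HP by 1.11 and ORM2 by 1.01 on the log2 scale, ITIH3 had -0.67, and the median was -1.06 against -0.02 for all genes tested.

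The background over all genes includes many short genes with few reads. When the set was limited to protein-coding genes that drew 50 reads or more in either library, 0.425% of 10362 were called lower at 24 h and 1.36% of 10479 at 48 h. In this set 30 genes, ORM1 included, were as low as ORM1 or lower at 48 h, which is 0.286% of them, and the corresponding share was 0.964% for HP, 1.30% for ORM2 and 4.43% for ITIH3. At 24 h the shares were 1.06% for ORM1, 1.38% for ORM2, 1.72% for HP and 11.5% for ITIH3. ORM2 stood just past the threshold at 48 h, and its call was lost when the values were centred on the median of all genes or scaled to the plain sum of reads, which left 2 members called.

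**Figure D3:**
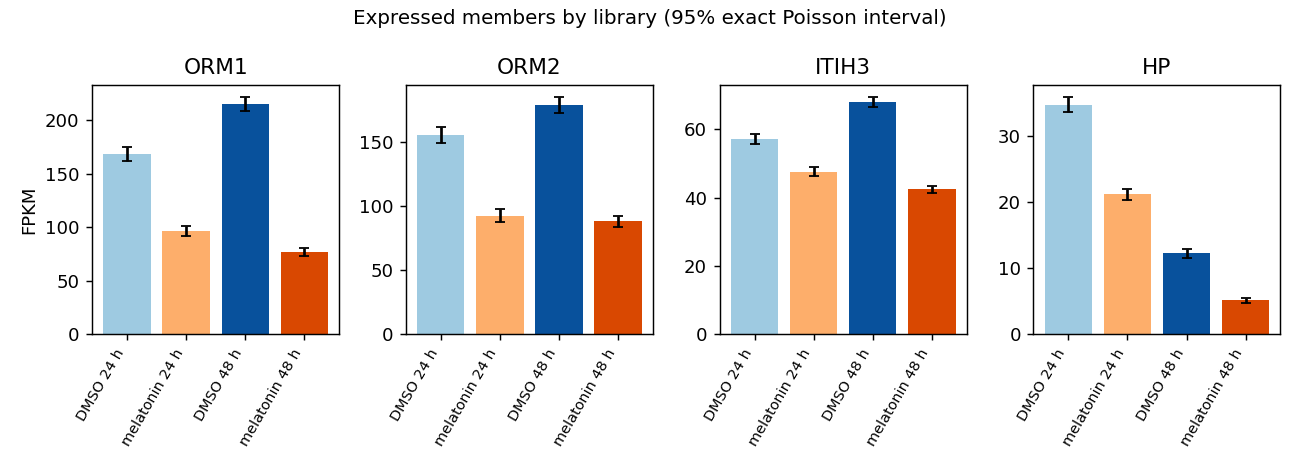
FPKM of ORM1, ORM2, ITIH3 and HP (linear axes from 0) in the 4 libraries, as bars with 95% exact Poisson intervals. For each gene the melatonin library is lower than the DMSO library of the same time, and for HP both libraries of 48 h, at 12.2 and 5.15, are lower than those of 24 h.

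For each of the 4 expressed members, the ratio of melatonin to DMSO was lower at 48 h than at 24 h and the intervals of the ratios did not overlap. On the log2 scale the change of 48 h exceeded that of 24 h by -0.67 for ORM1, -0.42 for HP, -0.41 for ITIH3 and -0.27 for ORM2. The intervals cover counting error only, and with 1 library per condition the difference between the times was not tested. The melatonin contrasts of 24 h and 48 h have DMSO libraries of their own.

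Time in culture parted HP from the other expressed members. With DMSO, HP fell from 24 h to 48 h (log2 fold change -1.43, ratio 0.352 with 0.331 to 0.375), where 7.74% of 13854 genes were called, while ORM1, ORM2 and ITIH3 had 0.35, 0.20 and 0.25. On the TPM scale HP had -0.98 and was no longer called, the orosomucoids had 0.86 and 0.71 and ITIH3 had 0.75, because that scale shifts the median of all genes from 0.00 to 0.47 in this comparison. With melatonin, HP again fell (log2 fold change -1.85, ratio 0.243 with 0.222 to 0.266), where 4.15% of 13489 genes were called, and 3 of 10394 protein-coding genes in the set with 50 reads or more, HP included, were as low. ORM1, ORM2 and ITIH3 had -0.32, -0.07 and -0.16 there, and on the TPM scale ORM2 and ITIH3 turned to 0.20 and 0.11. These time comparisons share libraries with the melatonin comparisons and add no independent measurement.

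**Figure D4:**
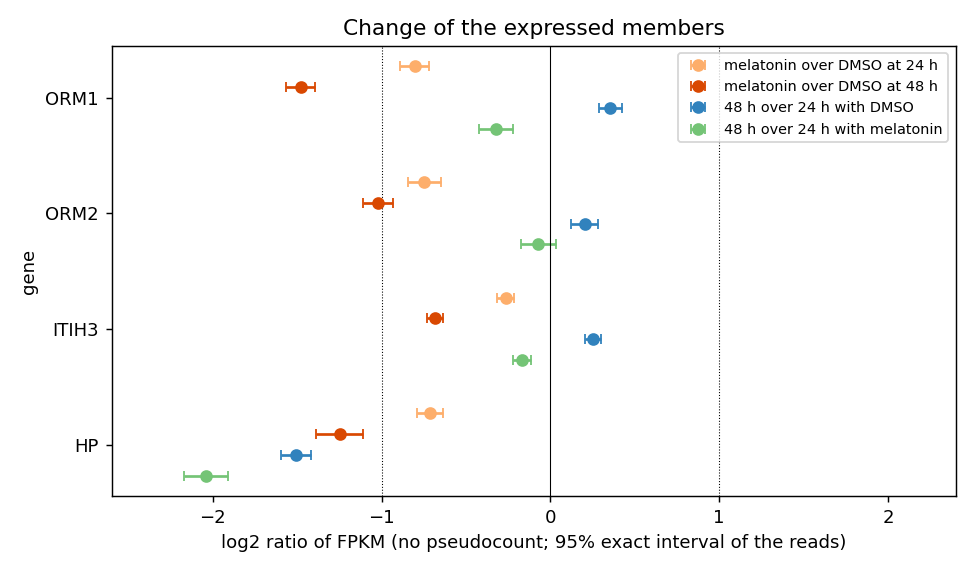
Log2 ratio of FPKM without a pseudocount for ORM1, ORM2, ITIH3 and HP in the 4 comparisons, with 95% exact intervals of the reads and dotted lines at 2-fold. All 4 genes lie below 0 for melatonin over DMSO at both times, and HP alone lies far below 0 for 48 h over 24 h.

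Genes with a similar pattern were sought among 10522 protein-coding genes that drew 50 reads or more in all 4 libraries. The 4 log2(FPKM + 1) values of a gene were centred on their mean and compared by Euclidean distance with the median pattern of the 5 members that reached an FPKM of 1, which was 0.39 and -0.36 at 24 h and 0.36 and -0.47 at 48 h for DMSO and melatonin. The 5 nearest genes were F11 (distance 0.0439), TNS4 (0.0785), CNNM1 (0.0918), SCN1A (0.119) and CA5A (0.133). These genes depended on SAA4, which reached an FPKM of 1 in a single library. With SAA4 left out, an alternative chosen after seeing the data, the 5 nearest genes were MISP (0.0665), NR2F6 (0.0704), BCL9L (0.0874), SLC22A3 (0.1004) and PLS3 (0.123), and 0 of the 5 were shared. F11, the gene of coagulation factor XI, had an FPKM of 10.7 and 5.98 at 24 h and of 10.5 and 5.45 at 48 h. With 4 libraries many genes can come near any pattern, and the likeness is a description.

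Other genes of the acute phase were taken from hand-written lists. Of 24 further genes of positive acute phase proteins, 21 were tested at 24 h, of which 2 fell and 0 rose, and 20 at 48 h, of which 3 fell and 0 rose, with medians of -0.15 and -0.23. HPX, the gene of the haem-binding hemopexin, fell at both times, with an FPKM of 6.09 and 2.01 at 24 h and of 2.93 and 0.322 at 48 h for DMSO and melatonin. PLA2G2A, a secreted phospholipase, likewise fell, with 5.95 and 1.96, and 4.46 and 0.588. SERPINA3, the gene of alpha-1-antichymotrypsin, had 3.31 and 2.90 at 24 h and fell from 8.13 to 2.87 at 48 h.

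The abundant genes of that list moved less. SERPINA1, which encodes alpha-1-antitrypsin, had an FPKM of 1702 and 1693 at 24 h and of 1342 and 1486 at 48 h for DMSO and melatonin. FGA, of fibrinogen, had 377 and 375, and 363 and 347. CP, the gene of the copper protein ceruloplasmin, was lower with melatonin without being called, at 56.9 and 28.4, and 53.8 and 32.0. HAMP, which encodes the iron hormone hepcidin, was higher without being called, at 1.97 and 4.42, and 1.80 and 3.77, and on the TPM scale it was called at 24 h with 1.16.

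Among 12 negative acute phase genes, whose proteins decline in inflammation, 10 were tested at each time, with medians of 0.10 at 24 h and -0.29 at 48 h. The gene called was TTR, the carrier of thyroxine, which had an FPKM of 41.9 and 46.8 at 24 h and rose from 50.6 to 256 at 48 h (log2 fold change 2.31, ratio 5.05 with 4.83 to 5.28). The high value belongs to the melatonin library of 48 h alone, and it remained between 2.27 and 2.38 on the other scalings. TF (transferrin) and AHSG (fetuin A) were lower without being called at 48 h, with -0.93 and -0.72, and ALB (albumin) had -0.02. APOA2 (apolipoprotein A-II) was higher without being called, with an FPKM of 1000 and 1561 at 24 h and of 1630 and 2853 at 48 h. Of the 10 genes tested, 6 were above 0 and 4 below at 24 h, and 3 above and 7 below at 48 h.

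**Figure D5:**
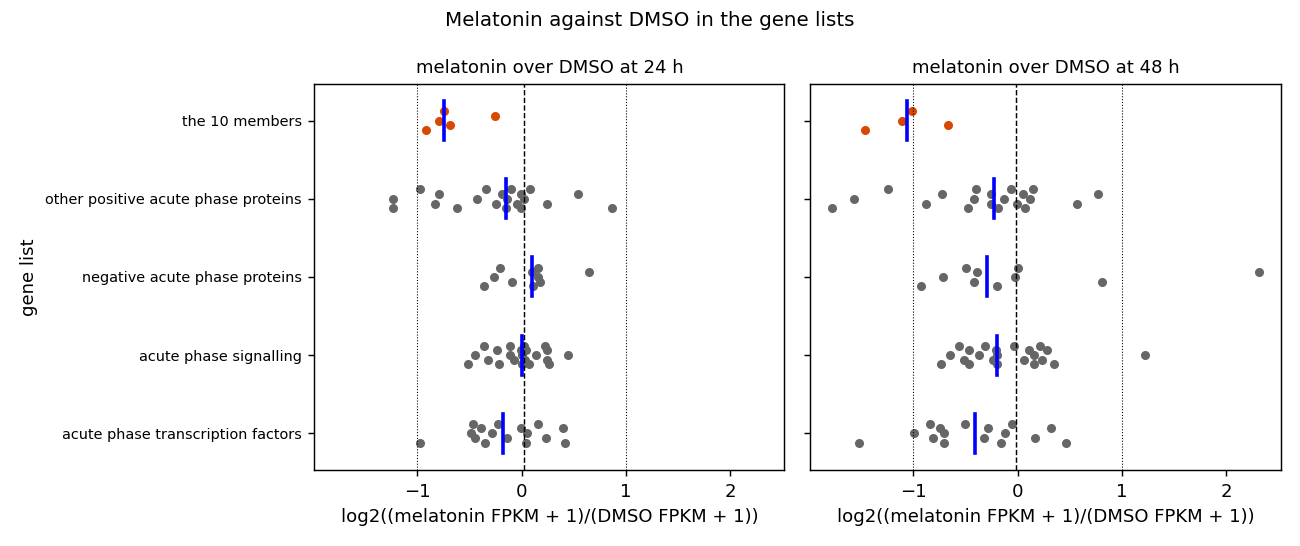
Log2 fold changes of melatonin over DMSO at 24 h (left) and 48 h (right) for the members and 4 other gene lists, 1 point per gene that was tested. Blue bars are list medians, the dashed line is the median of all genes tested and dotted lines mark 2-fold. The members' medians of -0.74 and -1.06 lie lowest, and TTR is the point at 2.31.

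Of 27 genes of the inducing signals and their receptors, 22 were tested at each time, with medians of 0.01 and -0.20. Among the ligand genes, IL6 and OSM had 0 reads and IL1B and TNF stayed under an FPKM of 1. LIF, a ligand of the interleukin-6 family, was expressed, with 2.51 and 1.73 at 24 h and 3.48 and 1.85 at 48 h for DMSO and melatonin, without being called. IL6R, the ligand-binding chain of the interleukin-6 receptor, was the gene called, with 3.98 and 5.78 at 24 h and a rise from 8.36 to 20.8 at 48 h (ratio 2.49, 2.33 to 2.67). Its partner IL6ST had -0.21, JAK1 -0.20, STAT3 -0.37, RELA -0.47, NFKBIA -0.52 and NFKB1 -0.31 at 48 h. SOCS3, the feedback inhibitor that STAT3 induces, stayed under an FPKM of 1. It had 14 and 14 reads at 24 h and 39 and 18 at 48 h for DMSO and melatonin.

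Of 16 transcription factors of the acute phase and the hepatocyte, all 16 were tested and 0 were called at 24 h, while NR1H4 fell at 48 h, with medians of -0.18 and -0.41. FOXA2 was lower at 48 h without being called, with an FPKM of 31.9 for DMSO and 15.5 for melatonin. On the TPM scale, 2 of these 16 factors were called lower at 48 h, as were 3 of the 12 hepatocyte markers. NR1H4 encodes the bile acid receptor FXR, and its FPKM was 12.4 and 5.84 at 24 h and 14.3 and 4.33 at 48 h. CEBPB had 54.8 and 73.5 at 24 h and 99.96 and 60.8 at 48 h. CEBPD was lower at both times, with -0.47 and -0.74, and CEBPA had 0.04 and -0.05. HNF4A had -0.14 and 0.32, of which the value of 24 h turned to 0.03 on the TPM scale.

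Promoters of 5 members (CRP, SAA4, ORM1, ITIH3 and ITIH4) were found in the RefSeq table for GRCh38.p14, each a window around the start of the gene. HP, SAA1, SAA2, ORM2 and LBP had no entry. Both strands were searched for TTCNNNGAA (STAT), TTGCNNAA (C/EBP), AGAACA (glucocorticoid receptor) and the NF-kappaB motif, which 7.66%, 10.5%, 14.8% and 58.7% of 35116 promoters hold. ORM1 held 1 NF-kappaB match and ITIH3 held 2, CRP held 1 match of the glucocorticoid receptor motif, ITIH4 held 1 STAT match, and SAA4 held 3 C/EBP matches. A match is a description of letters and not a site. The promoters of the expressed members ORM1 (chr9:114322848-114323147, forward strand) and ITIH3 (chr3:52794546-52794845, forward strand) are shown with that of CRP, which had 0 reads (chr1:159714540-159714839, reverse strand), and capitals mark the matches.
ORM1: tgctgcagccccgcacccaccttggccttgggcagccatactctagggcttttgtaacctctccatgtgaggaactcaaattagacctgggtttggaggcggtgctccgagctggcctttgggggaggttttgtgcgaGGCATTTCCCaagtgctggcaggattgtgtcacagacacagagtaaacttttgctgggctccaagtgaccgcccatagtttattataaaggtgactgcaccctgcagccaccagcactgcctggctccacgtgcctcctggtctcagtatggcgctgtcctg
ITIH3: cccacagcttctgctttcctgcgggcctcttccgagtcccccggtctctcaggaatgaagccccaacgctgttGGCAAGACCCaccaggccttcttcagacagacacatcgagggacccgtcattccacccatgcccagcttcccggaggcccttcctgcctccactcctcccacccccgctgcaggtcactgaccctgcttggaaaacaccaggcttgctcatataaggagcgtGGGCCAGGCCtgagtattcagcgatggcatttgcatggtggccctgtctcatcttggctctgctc
CRP: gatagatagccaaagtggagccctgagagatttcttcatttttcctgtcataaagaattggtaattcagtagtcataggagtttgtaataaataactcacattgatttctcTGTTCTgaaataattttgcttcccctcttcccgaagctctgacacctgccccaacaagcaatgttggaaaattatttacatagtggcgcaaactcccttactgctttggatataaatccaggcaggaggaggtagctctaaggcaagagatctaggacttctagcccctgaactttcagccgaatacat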

How the data were processed

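Polyadenylated RNA of HepG2 cells was sequenced with paired-end reads. Per the study's methods the authors mapped reads to hg38 with MapSplice and took expression with Cufflinks; the submitters' processing notes name Bowtie2 2.0.6, TopHat2 2.0.9, Cufflinks 2.1.1 and Cuffdiff 2.1.1. The authors deposited FPKM per gene, with the gene length in bp, in 1 file per library. These sources differ on the aligner, and how the gene length was set and whether counting used strand are not given in the sources used here.

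FPKM times gene length was a whole multiple of 1 step per library (within 0.01 reads) for 100% of the values above 0, which gave the reads. Single values have exact Poisson intervals, ratios of libraries exact conditional binomial intervals, and shares exact Clopper-Pearson intervals (95%). No p-value was computed, since each condition has 1 library. Fold changes used a pseudocount of 1, a minimum FPKM of 1 in either library and a 2-fold threshold. The background was taken over all genes tested. The members and lists were chosen with earlier results of these data known. Genes named are the members, their near-copies and relatives, genes of the lists that were called, the core signalling genes and the 5 nearest patterns. SERPINA1, FGA, CP, HAMP, ALB, TF, AHSG and APOA2 were chosen as examples after their values were seen, as were KRT19, EPCAM, CD74, CD14, FOXA2, IL6, OSM, IL1B, TNF, LIF, ASGR1, ASGR2, SCARB1 and LRP1.

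Gene coordinates follow the files (hg38), and transcripts are those of GENCODE 44. The scripts (Python 3.11.15, numpy 2.4.6, pandas 2.3.3, scipy 1.17.1, matplotlib 3.10.9) were tested on simulated data. Alternatives were a pseudocount of 0.1, no minimum, minima of FPKM 5 or of 50 reads, a 1.5-fold threshold, centring on the median, TPM, library sizes as the sum of reads with or without mitochondrial genes, and summing near-copies. The length of the MANE transcript and leaving out SAA4 were alternatives chosen after seeing the data. Some genes and a motif of the lists are not reported here.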

Additional observations from a re-analysis of the deposited data

Results flagged for a closer look

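Among the members and the tested genes named in the text, 7 genes had melatonin effects of opposite sign at 24 h and 48 h, with intervals of the ratio that exclude 1 at each time. None of them is a member. CEBPB had a log2 fold change of 0.42 at 24 h and of -0.71 at 48 h, and kept both signs on the other scalings. HNF4A had -0.14 and 0.32, JAK1 0.13 and -0.20, AMBP 0.17 and -0.081, PDGFRB -0.66 and 0.22, TXNL4B 0.25 and -0.28, and ALB 0.11 and -0.022. For HNF4A the sign of 24 h turned on the TPM scale, and for ALB that of 48 h turned with the plain sum of reads (0.01 with and 0.05 without mitochondrial genes). With 1 library per condition the difference between the times was not tested.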

How the results depend on the processing

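No paired analysis was possible because each condition has 1 library, so that conditions share no more than 1 replicate number. For ORM1, ORM2, HP and ITIH3 the melatonin effect stayed below 0 at both times under every alternative run for them, from -0.82 to -0.63 at 24 h and -1.53 to -1.40 at 48 h for ORM1, -0.77 to -0.57 and -1.07 to -0.95 for ORM2, -0.71 to -0.53 and -1.25 to -1.05 for HP, and -0.28 to -0.09 and -0.73 to -0.60 for ITIH3. At 24 h the count of members called was 0 as reported, 1 with a pseudocount of 0.1 1 with TPM and 1 with the length of the MANE transcript (SAA4, from 17 and 3 reads, in each), and 4 at 1.5-fold. With no minimum, the members with next to no reads drew the medians to -0.14 at 24 h and -0.047 at 48 h for melatonin, and to 0.013 and -0.051 for time with DMSO and with melatonin, and 2 members (SAA2 and LBP, with at most 2 reads per library) had effects of opposite sign. With TPM the median of 24 h was -0.57. For 48 h over 24 h with DMSO, the members called numbered 2 with a pseudocount of 0.1 and 2 at 1.5-fold but 0 with TPM, where 1 is reported, and the median of 0.20 became 0.71 with TPM, 0.36 with the plain sum of reads and -0.21 with near-copies summed, which leaves fewer genes above 0. With melatonin the median of -0.24 became 0.031 with TPM and -0.11 with the plain sum. TPM moved the median of all genes tested from 0.02 to 0.19 for melatonin at 24 h, from 0.00 to 0.47 for time with DMSO and from -0.04 to 0.21 for time with melatonin.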

Other observations

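Of 15 receptors, ligands and partners of these proteins, 5 were tested at 24 h and 6 at 48 h. CD163, the scavenger receptor of the haptoglobin and haemoglobin complex, and HBB had at most 2 reads per library, and the SAA receptor FPR2 and the CRP receptor FCGR1A had 0. The genes of the asialoglycoprotein receptor, which clears plasma glycoproteins, were lower with melatonin at 48 h without being called, with an FPKM of 129 and 73.5 for ASGR1 and of 127 and 67.0 for ASGR2. LY96, the TLR4 partner MD-2, fell at 48 h from 38 to 7 reads. SCARB1, a receptor of high-density lipoprotein, had 43.1 and 31.2 at 24 h and 39.2 and 28.8 at 48 h for DMSO and melatonin, whereas LRP1 was higher, with 65.1 and 74.4, and 61.2 and 82.2.

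Across time in culture, some listed genes other than the members were also called. With DMSO, SERPINA3 (log2 fold change 1.08), the interleukin-1 receptor gene IL1R1 (1.18) and LY96 (1.02) rose from 24 h to 48 h, and HPR (-1.56) fell. With melatonin, TTR (2.42), IL6R (1.68) and PDGFRB (1.59) rose, and HPX (-1.19) and the cortisol carrier gene SERPINA6 (-1.03) fell, the last a call that was lost on each of the other scalings tried, with -0.78 on the TPM scale.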
